A study of Mus musculus with 6 samples.

Results

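Transcripts of 9 B lineage genes were measured in RNA from splenic CD4+ T cells: the B cell receptor signalling chains *Cd79a* and *Cd79b*, the surface proteins *Ms4a1*, *Cd22*, *Fcer2a* and *Cr2*, the kinase *Blk* and the transcription factors *Pax5* and *Ebf1*. The genes were taken by name as markers of B cells carried over into a T cell preparation, and they are 9 of the 45777 genes in the deposited tables. The spleen donors were female C57BL/6 mice (an inbred strain) aged 7 weeks, with no transgene or treatment named, and the cells were isolated as CD4+Lrig1+ or CD4+Lrig1- T cells. Lrig1 is a transmembrane protein that the study examined as a surface marker of regulatory T cells. The tables used here hold 4 bulk libraries, 2 of each group, with 1 library of each group in each table, and the tables are called set 1 and set 2. What separates the sets (animals, sort, extraction or sequencing run) is not given in the sources used here. The sources also do not say whether the libraries came from separate animals or pools, so each p measures only the spread between these libraries.

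B cells recognise antigen through a membrane immunoglobulin that carries no signalling tail of its own. CD79a and CD79b form the paired chains that pass the signal inwards, Src-family kinases such as Blk act on those chains, and surface proteins such as CD22 and CD21 raise or lower the response. Ebf1 and Pax5 establish and hold B cell identity, and Pax5 is needed to keep a B cell from taking other fates. The spleen is rich in B cells, whereas a conventional CD4+ T cell has its own antigen receptor with CD3 chains and signals without the CD79 pair.

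The libraries held from 44865070 to 59977951 estimated read counts on genes. *Lrig1*, the gene of the sorted protein, had 110 and 39.1 TPM (a level scaled by transcript length and by the sum over transcripts) in the CD4+Lrig1+ and the CD4+Lrig1- library of set 1 and 40.0 and 10.4 TPM in those of set 2. *Foxp3*, which encodes the transcription factor of regulatory T cells, had 391 and 33.4 TPM in set 1 and 249 and 11.5 TPM in set 2, so both genes ran with the labels in each set. T cell identity genes were abundant in all 4 libraries, with *Cd3e* at 808, 796, 660 and 573 TPM. The values that follow are normalised read counts in CPM (estimated counts scaled to library size, after TMM normalization), and levels of different genes are compared only in TPM.

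In CPM all 9 genes were higher in both libraries of set 2 than in both libraries of set 1. In TPM this held for 8 of them and not for *Cd22*, and in set 2 all 9 were higher in CD4+Lrig1- than in CD4+Lrig1+ T cells. *Cd79a* (gene ID 12518, chromosome 7 of GRCm38 from 24897497 to 24901858, plus strand) had 10.98 CPM in CD4+Lrig1+ and 11.2 CPM in CD4+Lrig1- T cells of set 1. In set 2 it had 87.5 and 182 CPM, which came from 5023 and 9807 estimated counts. The set 1 libraries thus lay close together at 571 and 535 counts, and those of set 2 lay far above them. Its partner chain *Cd79b* (gene ID 15985, chromosome 11 from 106311341 to 106314562, minus strand) had 13.5 and 6.85 CPM in set 1 and 93.6 and 146 CPM in set 2. It differed from *Cd79a* in set 1, where the CD4+Lrig1+ library was the higher one, with 703 against 328 counts. In the 2 CD4+Lrig1+ libraries *Cd79a* averaged 49.2 ± 54.1 CPM (SD, n = 2) and in the 2 CD4+Lrig1- libraries 96.4 ± 120 CPM (SD, n = 2), an SD above the mean in both groups.

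Among the surface proteins, *Ms4a1* (gene ID 12482, chromosome 19 from 11249679 to 11266149, minus strand), which encodes CD20, had 5.77 and 6.79 CPM in the CD4+Lrig1+ and CD4+Lrig1- libraries of set 1 and 69.3 and 150 CPM in set 2. *Fcer2a* (gene ID 14128, chromosome 8 from 3680280 to 3694174, minus strand), which encodes the low-affinity IgE receptor CD23 of mature follicular B cells, had 5.13 and 4.43 CPM in set 1 and 21.5 and 49.5 CPM in set 2. *Cr2* (gene ID 12902, chromosome 1 from 195136811 to 195176880, minus strand) had 5.77, 7.00, 17.7 and 44.5 CPM in the same order of libraries. It encodes the complement receptors CD21 and CD35, of which CD21 acts as a co-receptor of the B cell receptor. For these 3 genes the CD4+Lrig1- library of set 2 was the highest and the CD4+Lrig1+ library of set 2 the next.

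*Cd22* (gene ID 12483, chromosome 7 from 30865404 to 30880342, minus strand), an inhibitory sialic-acid-binding receptor of B cells, had the flattest levels. It had 32.8 and 16.2 CPM in the CD4+Lrig1+ and CD4+Lrig1- libraries of set 1, from 1707 and 774 counts, and 37.0 and 54.0 CPM in set 2. The CD4+Lrig1+ libraries of the sets thus lay near each other, at a ratio of 1.13 (95% exact binomial interval 1.06 to 1.20), while the CD4+Lrig1- libraries differed by 3.34 times (3.08 to 3.62). On the TPM scale the direction turned in CD4+Lrig1+ T cells, with 21.5 in set 1 and 14.8 in set 2, but not in CD4+Lrig1- T cells, with 10.8 and 20.4. These intervals, and those below, are Clopper-Pearson intervals of the counts of 2 libraries and cover counting error only.

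*Blk* (gene ID 12143, chromosome 14 from 63372837 to 63417187, minus strand), a Src-family tyrosine kinase of B cells, had 3.75, 4.03, 14.4 and 30.2 CPM in the CD4+Lrig1+ and CD4+Lrig1- libraries of set 1 and then of set 2. The transcription factor *Pax5* (gene ID 18507, chromosome 4 from 44524748 to 44710694, minus strand) had 9.46, 10.05, 20.1 and 50.7 CPM in that order. *Ebf1* (gene ID 13591, chromosome 11 from 44618100 to 45008096, plus strand), which acts upstream of *Pax5* in B cell commitment, had 1.56, 1.88, 4.44 and 10.7 CPM and was the least abundant, with 81 to 577 counts. For these 3 genes the libraries of set 1 lay close together and the CD4+Lrig1- library of set 2 stood above its CD4+Lrig1+ counterpart.

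**Figure D1:**
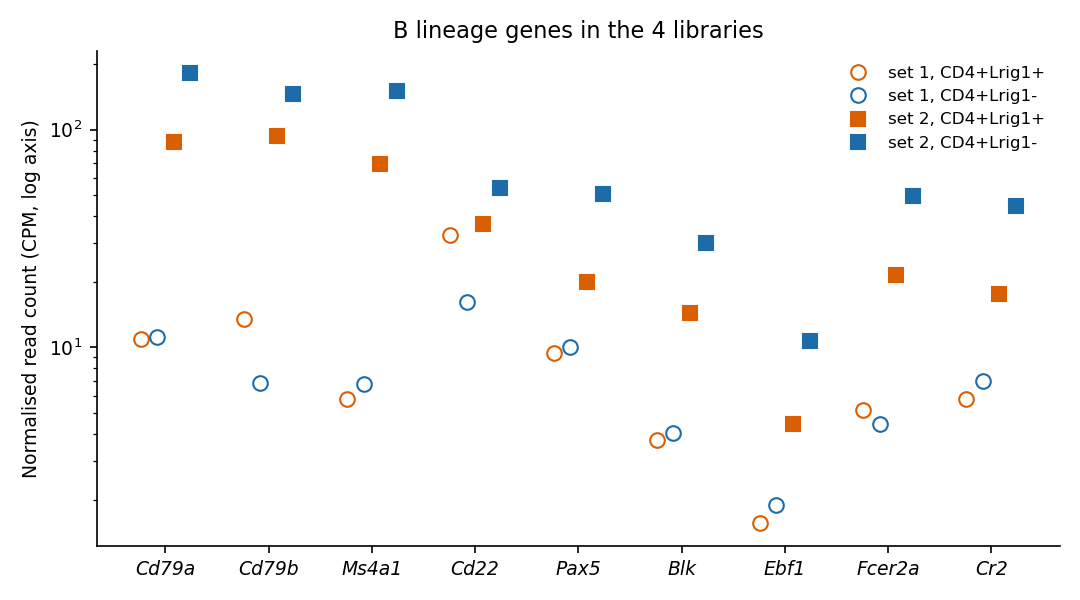
Normalised read count (CPM, log axis) of the 9 B lineage genes in the 4 libraries. Open circles are set 1 and filled squares set 2, orange is CD4+Lrig1+ and blue CD4+Lrig1-, and each symbol is 1 library. For each gene both squares lie above both circles, least so for *Cd22* (37.0 CPM against 32.8 CPM), and the blue square lies above the orange one.

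Within set 1 the groups were nearly level for most of the genes, and within set 2 they were not. Dividing the CD4+Lrig1+ level by the CD4+Lrig1- level in set 1 gave log2 ratios of -0.03 for *Cd79a*, -0.09 for *Pax5*, -0.10 for *Blk*, -0.23 for *Ms4a1*, -0.27 for *Ebf1* and -0.28 for *Cr2*. *Fcer2a* had 0.21, *Cd79b* 0.98 and *Cd22* 1.02, so 6 of the 9 ratios lay below 0, with a median of -0.09 beside 0.01 for all 16123 genes tested. The counting intervals of the folds reached past 1 for *Cd79a*, *Pax5*, *Blk*, *Ebf1* and *Fcer2a*. They did not for *Cd79b* (1.97 times, 1.73 to 2.26), *Cd22* (2.03 times, 1.86 to 2.21), *Ms4a1* (0.850 times, 0.724 to 0.997) and *Cr2* (0.825 times, 0.703 to 0.966).

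In set 2 all 9 genes were lower in CD4+Lrig1+ than in CD4+Lrig1- T cells. The log2 ratios ran from -1.34 for *Pax5* and -1.33 for *Cr2* through -1.26 for *Ebf1*, -1.20 for *Fcer2a*, -1.12 for *Ms4a1*, -1.06 for *Blk* and -1.05 for *Cd79a* to -0.64 for *Cd79b* and -0.55 for *Cd22*. Their median was -1.12, beside -0.06 for all genes tested, of which 55.7% lay below 0. A ratio under -1 was seen in 7 of the 9 genes and in 8.29% of all genes tested. As folds, *Cd79a* was 0.482 times (0.465 to 0.498) and *Cd22* 0.685 times (0.647 to 0.724) its CD4+Lrig1- level. The direction was the same in both sets for 6 of the 9 genes, and 41.3% of all genes were lower in CD4+Lrig1+ T cells on both occasions. With 1 library per group in each set these ratios compare 2 libraries, and the counting intervals hold no spread between animals or preparations. Bulk samples do not show which cells held these RNAs. They also cannot tell fewer B cells from less of these RNAs per B cell.

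**Figure D2:**
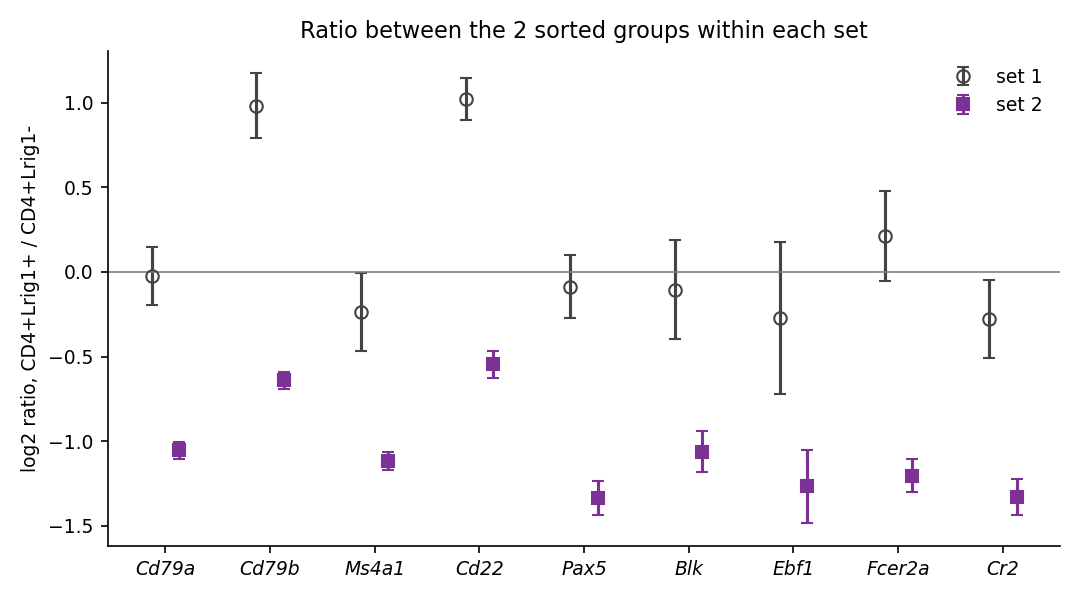
Log2 ratio between the groups (CD4+Lrig1+ divided by CD4+Lrig1-) for the 9 genes within set 1 (open circles) and set 2 (filled squares), with 95% exact binomial intervals that cover counting error only. The squares all lie below 0, from -1.34 to -0.55, while the circles run from -0.28 to 1.02 with *Cd79b* and *Cd22* near 1.

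Compared as groups, without regard to the set of a library, CD4+Lrig1+ and CD4+Lrig1- T cells gave no call among the 9 genes. By edgeR's quasi-likelihood test on the groups alone, 0 of the 9 and 0% of the 16123 genes tested passed a Benjamini-Hochberg adjusted p under 0.05, and 674 genes were higher and 227 lower at an unadjusted p under 0.05, with 0 of the 9 genes among them. The Wald test of DESeq2 called 1.94% of all genes and again 0 of the 9. The fitted log2 fold changes were -0.97 for *Cd79a* (SE 1.63), -1.07 for *Ms4a1* (SE 1.82), -1.13 for *Cr2* (SE 1.09) and -0.01 for *Cd22* (SE 0.65), each with an adjusted p of 1.00 in edgeR, and their median over the 9 was -1.02. *Lrig1* at 1.64 and *Foxp3* at 3.92 did not pass the edgeR test either (adjusted p = 0.819 and 0.501 in edgeR). In the Wald test of DESeq2 *Foxp3* passed (adjusted p = 3.55e-11) and *Lrig1* did not (adjusted p = 0.291). The groups overlapped for each of the 9 genes, whereas 14.3% of all genes tested were higher and 11.8% lower in both CD4+Lrig1+ libraries than in both CD4+Lrig1- libraries. For any single gene, 2 libraries in each group allow no exact permutation p below 0.333.

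Adding the set of each library to the fit (the table block) compares the groups within the sets. With it edgeR called 14.6% of all genes higher and 12.8% lower in CD4+Lrig1+ T cells, and 2 of the 9 genes fell. They were *Ms4a1*, with a log2 fold change of -0.78 (SE 0.18, adjusted p = 0.0183 in edgeR), and *Cr2*, with -0.87 (SE 0.22, adjusted p = 0.0259). *Cd79a*, *Pax5*, *Blk* and *Ebf1* had -0.62, -0.76, -0.66 and -0.84 with adjusted p from 0.0554 to 0.0648 in edgeR, and *Fcer2a* had -0.62 with 0.153. *Cd79b* and *Cd22* had 0.03 and 0.21, with adjusted p of 0.962 and 0.673 in edgeR. In the same fit *Lrig1* (1.68, adjusted p = 2.78e-05 in edgeR) and *Foxp3* (3.95, adjusted p = 1.57e-05) were both called higher in CD4+Lrig1+ T cells. The 2 of 9 genes called lower stand beside 12.8% of all genes, and with DESeq2's size factors in the same fit only *Ms4a1* was called (adjusted p = 0.0359 in edgeR, against 0.0504 for *Cr2*). The Wald test of DESeq2 with the block called 12.2% of all genes lower and 3 of the 9, *Cd79a*, *Ms4a1* and *Cr2*. The edgeR fit leaves 1 residual degree of freedom for each gene.

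Between the sets the CPM of all 9 genes differed in the same direction in both groups, which in TPM was so for 8, with *Cd22* lower in set 2 in CD4+Lrig1+ T cells. *Ms4a1* was 12.0 times higher in set 2 than in set 1 in CD4+Lrig1+ T cells (10.7 to 13.6) and 22.1 times in CD4+Lrig1- T cells (19.8 to 24.8). For *Cd79a* the ratios were 7.97 (7.30 to 8.70) and 16.3 (14.9 to 17.8), and for *Cd79b* 6.92 (6.40 to 7.50) and 21.3 (19.1 to 23.8). The other ratios in CD4+Lrig1+ and CD4+Lrig1- T cells were 4.19 and 11.2 for *Fcer2a*, 3.85 and 7.48 for *Blk*, 3.06 and 6.35 for *Cr2*, 2.85 and 5.68 for *Ebf1* and 2.12 and 5.05 for *Pax5*. A log2 ratio over 1 in both groups was thus reached by 8 of the 9 genes, *Cd22* being the exception, and by 12.2% of all genes tested. In CPM all 9 genes had sets that did not overlap with set 2 higher, as had 34.4% of all genes.

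By edgeR's quasi-likelihood test with the set as the only term, 16.3% of all genes were higher and 18.8% lower in set 2, and 6 of the 9 genes rose. Their log2 fold changes were 4.13 for *Ms4a1* (SE 0.48), 3.60 for *Cd79a* (SE 0.43), 3.55 for *Cd79b* (SE 0.47), 2.89 for *Fcer2a* (SE 0.49), 2.52 for *Blk* (SE 0.44) and 2.28 for *Cr2* (SE 0.52), with adjusted p from 0.0129 to 0.0413 in edgeR. *Ebf1* (2.14), *Pax5* (1.86) and *Cd22* (0.89) had adjusted p of 0.0505, 0.0598 and 0.189 in edgeR. On the log2(TPM + 1) scale *Cd22* had 0.17 (adjusted p = 0.759 in limma). With the Lrig1 group as a second term all 9 passed, beside 32.1% of all genes called higher. Leaving out any one of the 4 libraries ended every call, for the 9 genes and for all genes, while the log2 fold changes of the 9 stayed above 0, from 0.47 for *Cd22* without the CD4+Lrig1- library of set 1 to 4.59 for *Ms4a1*. *Cr2* was also lost on the log2(FPKM + 1), log2(FPKM + 0.1) and log2(TPM + 1) scales (adjusted p = 0.0890, 0.068 and 0.153 in limma). Without a filter on low counts it was lost as well (adjusted p = 0.0503 in edgeR).

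Transcript length moved with the set difference. With all genes split into 5 groups of like number by transcript length, from shortest to longest, the median log2 fold change between the sets fell from 0.92 through 0.38, 0.08 and -0.25 to -0.84. The share of genes that edgeR called higher in set 2 fell from 37.4% in the shortest group to 1.67% in the longest. The short transcripts of *Cd79a* (1002 bases) and *Cd79b* (a mean of 1230 bases) belong to the first of these groups, and the long ones of *Pax5* (8220 bases), *Cr2* and *Ebf1* to the last. Set against the median of genes of like length, *Ms4a1* was 4.04 higher on the log2 scale, *Cr2* 3.13, *Ebf1* 2.98, *Fcer2a* 2.81, *Pax5* 2.70, *Cd79a* 2.68, *Cd79b* 2.63, *Blk* 2.43 and *Cd22* 1.14. The order of the genes thus changed, with *Cd79a* and *Cd79b* no longer above *Pax5*, *Cr2* and *Ebf1*, but each stayed above the median of genes of its own length.

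**Figure D3:**
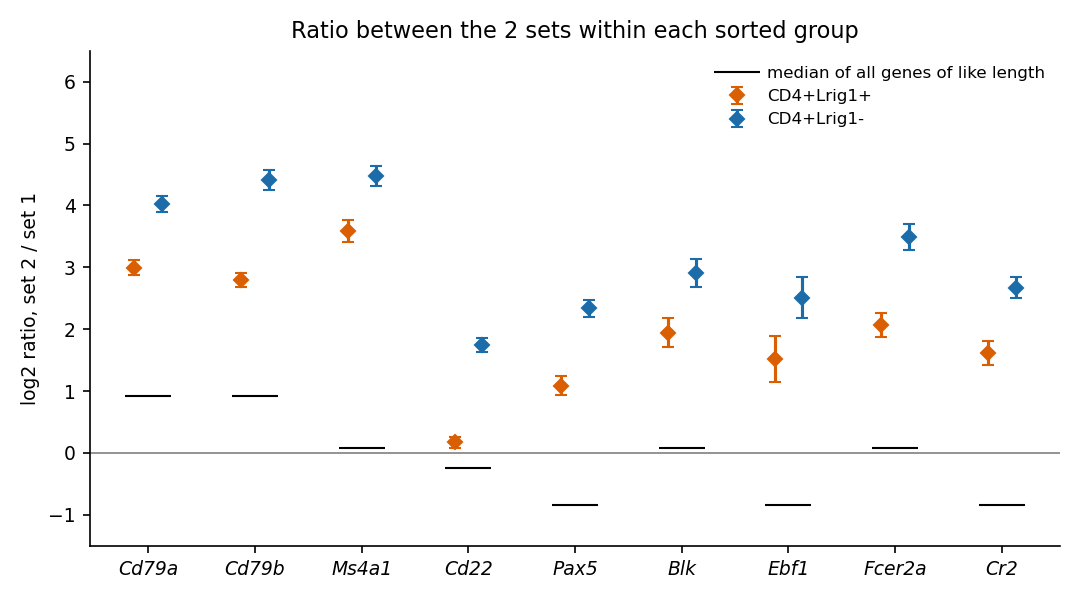
Log2 ratio of set 2 over set 1 for the 9 genes in CD4+Lrig1+ (orange) and CD4+Lrig1- (blue) T cells, with 95% exact binomial intervals that cover counting error only. Black dashes give the median fitted log2 fold change between the sets of all genes of like transcript length. Blue lies above orange for each gene, and the dashes run from -0.84 to 0.92.

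Markers of other cells moved between the sets as well. The summed CPM of the 9 genes was 88.8 and 68.4 in the CD4+Lrig1+ and CD4+Lrig1- libraries of set 1 and 365 and 717 in set 2. Erythroid markers summed to 9.65 and 9.59 CPM in set 1 and 86.0 and 97.9 CPM in set 2. In the edgeR test between the sets 7 of the 8 rose, beside 16.3% of all genes tested, which is the background for the counts below. That share was not matched for transcript length, and it ran from 37.4% of the shortest group of genes to 1.67% of the longest. Lists of short transcripts thus lie less far from their background than 16.3% makes it seem. Monocyte and macrophage markers went from 61.9 and 41.7 CPM to 333 and 221 CPM (4 of 11 rose), neutrophil markers from 6.00 and 7.23 to 27.4 and 66.0 CPM (3 of the 4 tested rose) and the CD8 T cell genes *Cd8a* and *Cd8b1* from 14.1 and 19.5 to 51.6 and 97.3 CPM (both rose). NK cell markers had 44.5 and 76.6 CPM in set 1 and 90.8 and 193 CPM in set 2 (1 of 8 rose). MHC class II genes had 303 and 695 against 1368 and 2757 CPM (2 of 10 rose). For the NK cell and MHC class II lists the counts that rose were near the share of all genes. T cell identity genes changed less, from 7071 and 6711 to 10868 and 10787 CPM (7 of 14 rose), conventional dendritic cell markers had 10.7 and 47.4 against 11.2 and 35.1 CPM (0 of 7 rose), and of the 5 platelet markers *Ppbp* and *Gp9* were at 0 in all 4 libraries. The 1 platelet marker that passed the filter, *Itga2b*, ran the other way, with 114 and 143 counts in set 1 and 11 and 6 in set 2 (log2 fold change -4.07, adjusted p = 0.0144 in edgeR). The part of any of these cells in the difference of the 9 genes was not tested.

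Within set 2 the sum of the monocyte and macrophage markers ran against the B lineage genes. It was 333 CPM in CD4+Lrig1+ and 221 CPM in CD4+Lrig1- T cells. Of these 11 genes 2 ran the other way, *Lyz2* (66.7 and 95.5 CPM) and *Itgam* (4.46 and 14.6 CPM). The erythroid sum differed little. The sums of CD8 T cell, NK cell, neutrophil and MHC class II markers were higher in CD4+Lrig1- T cells, as the B lineage genes were. The NK cell gene *Eomes* (41.3 and 9.18 CPM) and the MHC class II gene *H2-Oa* (39.7 and 30.3 CPM) ran against their lists. As a share of the summed TPM of the 14 T cell identity genes, the 9 genes made up 0.671% and 0.537% in set 1 and 2.21% and 4.26% in set 2. *Cd79a*, set against *Cd3e* in the same library, stood at 3.39% and 3.59% of its TPM in set 1 and at 20.2% and 44.6% in set 2. The size of this contrast depends on the T cell gene chosen, since *Cd3e* was lower in TPM in set 2. The other CD3 chain genes were higher there, with *Cd3d* at 424 and 386 TPM in set 1 and 870 and 760 TPM in set 2. *Cd3g* had 851 and 818 TPM in set 1 and 1195 and 1082 TPM in set 2.

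**Figure D4:**
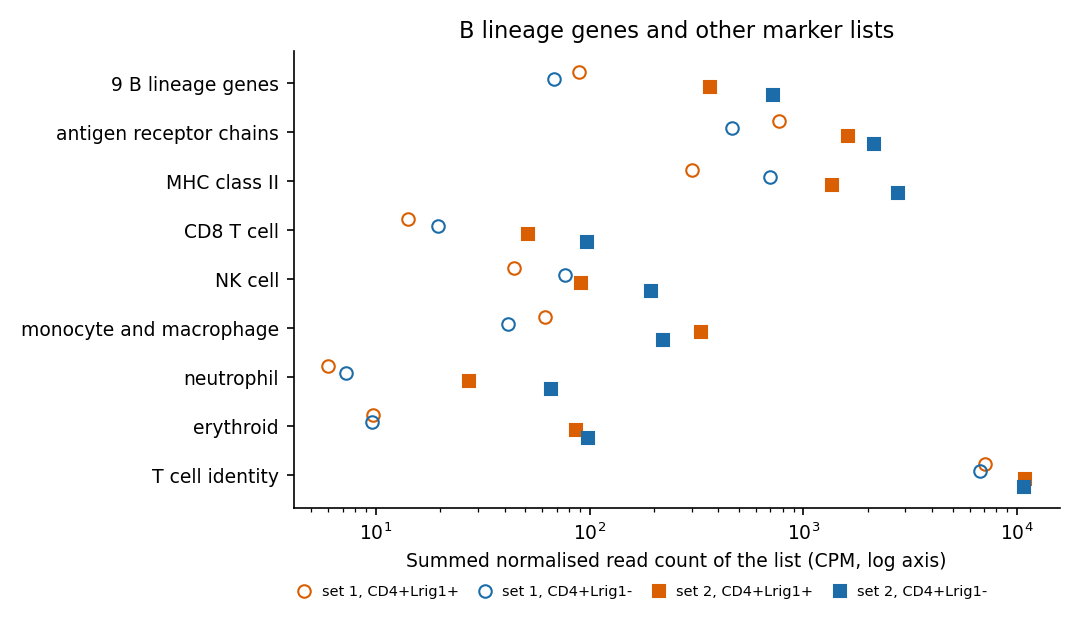
Summed normalised read count (CPM, log axis) of the 9 B lineage genes and of 8 marker lists in the 4 libraries. Open circles are set 1 and filled squares set 2, orange is CD4+Lrig1+ and blue CD4+Lrig1-. The B lineage sum went from 88.8 and 68.4 to 365 and 717 CPM, and the T cell identity sum from 7071 and 6711 to 10868 and 10787 CPM.

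The proportions among the 9 genes were not the same in the libraries. Of their summed TPM, *Cd79a* took 28.5% and 38.2% in the CD4+Lrig1+ and CD4+Lrig1- libraries of set 1 and 40.2% and 43.9% in set 2. *Cd22* took 22.4% and 14.5% in set 1, but 4.46% and 3.50% in set 2. *Cd79b* took 28.5%, 19.1%, 35.0% and 28.7%, so in each set its share was larger in the CD4+Lrig1+ library, as that of *Cd22* was. In TPM, *Cd79a* and *Cd79b* were level in the CD4+Lrig1+ library of set 1 (27.4 each), with *Cd22* next at 21.5. In the CD4+Lrig1- library of set 2 the order was *Cd79a* at 256, *Cd79b* at 167, *Ms4a1* at 71.2, *Fcer2a* at 30.7, *Cd22* at 20.4, *Blk* at 17.2, *Cr2* at 9.20, *Pax5* at 8.70 and *Ebf1* at 2.88. *Ebf1* was the lowest of the 9 in every library, with 0.74, 0.90, 1.30 and 2.88 TPM.

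**Figure D5:**
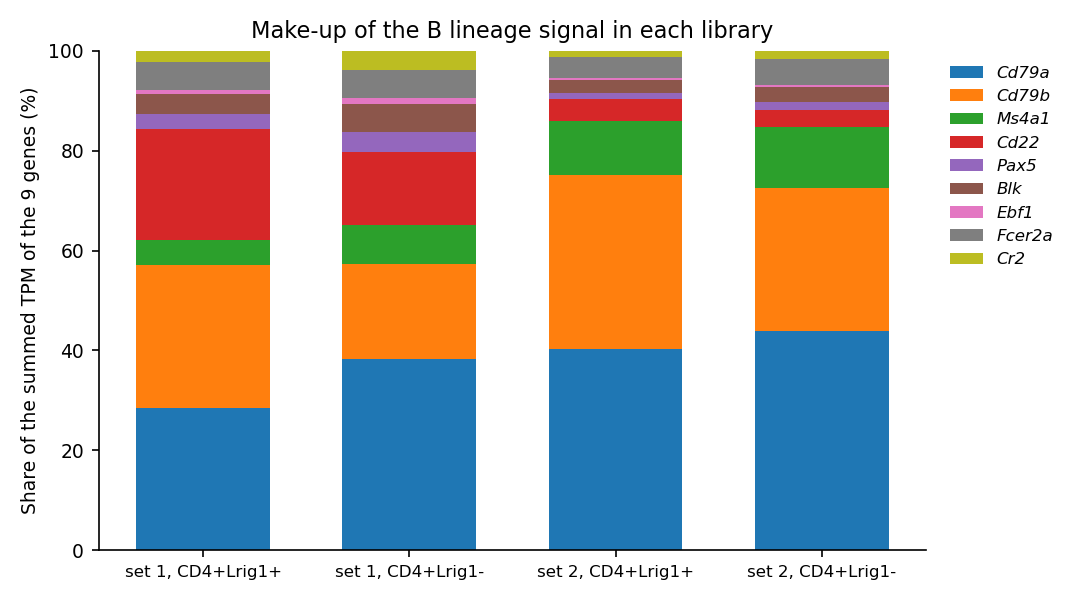
Share of each gene in the summed TPM of the 9 B lineage genes, as stacked bars that add to 100% in each of the 4 libraries. *Cd22* is a wide band in the set 1 libraries (22.4% and 14.5%) and a narrow one in those of set 2 (4.46% and 3.50%).

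The tables list transcripts, so the counts of a gene could be followed to its annotated start sites. *Cd79a*, *Ms4a1*, *Pax5* and *Blk* had 1 transcript each, and *Cd79b* had 2 from the same start, of which NM_008339 held 97.3% to 98.9% of the counts. *Ebf1* had 16 transcripts, 8 of them with counts, and between 99.0% and 100% of its counts came from the start at 44618100. *Cr2* counts came mostly from the starts at 195176719, with 45.3%, 42.1%, 70.5% and 74.5% in the CD4+Lrig1+ and CD4+Lrig1- libraries of set 1 and set 2, and 195176875. From the start at 195176719 alone the ratio of *Cr2* in set 1 was 0.888 (0.696 to 1.13), in place of 0.825 (0.703 to 0.966). So counted, its set 1 interval reached past 1, while the ratio in set 2 was 0.376 (0.344 to 0.410). *Cd22* had 12 transcripts, and 62.9%, 62.1%, 38.2% and 69.3% of its counts came from the start at 30880337. From that start alone its log2 ratio was 1.04 in set 1 and -1.41 in set 2, against 1.02 and -0.55 for the whole gene. Transcripts that share most of their exons divide reads only by estimate, so these shares are less certain than the sums.

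The sum of *Fcer2a* also depended on its transcripts. The start at 3694174 held 84.6% and 52.4% of its counts in the CD4+Lrig1+ and CD4+Lrig1- libraries of set 1 and 93.3% and 95.3% in set 2. Nearly all other counts lay on XM_006508697, which starts at 3690595 and runs at its end into *Trappc5*, a gene of the opposite strand, and held 37, 94, 78 and 104 counts. From the start at 3694174 alone, *Fcer2a* had 226 and 111 counts in set 1, a ratio of 1.87 (1.49 to 2.37) in place of 1.16 (0.965 to 1.40), and 1151 and 2548 counts in set 2, a ratio of 0.425 (0.396 to 0.456). So counted, *Fcer2a* was higher in CD4+Lrig1+ T cells of set 1 beyond counting error, as *Cd79b* and *Cd22* were. This count was chosen after seeing the data. Whether strand was used in counting is not given in the sources used here.

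The promoter sequence of 6 of the 9 genes (all but *Cd79b*, *Ms4a1* and *Blk*) was in the RefSeq table of GRCm38.p6, as 9 windows of the 250 bases before a start site. They were searched on both strands for the EBF1 motif (TCCC, any 2 bases, GGGA), the octamer ATTTGCAT and the PU.1 motif GAGGAAGT, which 0.779%, 1.60% and 2.44% of 32851 such windows hold. The search gave 1 match, the EBF1 motif 49 bases before the *Cd22* start at 30879028, and that start held only 2, 0, 0 and 10 counts. The *Cd22* stretch is printed with the match in capitals, and the stretches of *Cd79a*, the most abundant of the genes in set 2, and of the main *Fcer2a* start are printed because both were among the genes that rose in set 2 and hold no exact match to the 3 motifs. Each runs 5′ to 3′ on the strand of its gene and leaves out bases that GENCODE places in an exon.
Cd22, chr7:30879058-30879087, minus strand: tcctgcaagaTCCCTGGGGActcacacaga
Cd79a, chr7:24897247-24897380, plus strand: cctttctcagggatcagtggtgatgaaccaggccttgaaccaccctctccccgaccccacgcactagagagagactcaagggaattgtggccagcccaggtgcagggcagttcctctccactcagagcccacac
Fcer2a, chr8:3694176-3694424, minus strand: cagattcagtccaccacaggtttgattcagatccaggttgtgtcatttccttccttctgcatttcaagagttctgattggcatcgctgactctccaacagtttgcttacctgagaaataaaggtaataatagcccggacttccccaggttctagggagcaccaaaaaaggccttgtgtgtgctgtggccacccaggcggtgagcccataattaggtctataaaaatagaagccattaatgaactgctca
The absence of a match says only that these letters are not in the window. Binding sites spelled with other letters were not searched for.

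Other genes of the same pathway were taken from 4 lists: antigen receptor chains, B cell surface receptors, B cell receptor signalling and B lineage transcription factors, 39 genes in all, each of which passed the filter on low counts. Between the groups edgeR's quasi-likelihood test and the Wald test of DESeq2 each called 0 of the 39 (1 higher and 2 lower at an unadjusted p under 0.05 in edgeR), with a median log2 fold change of -0.81 beside -0.04 for all genes tested. With the table block 5 of the 39 rose in CD4+Lrig1+ T cells and 19 fell, beside 14.6% and 12.8% of all genes. The 5 that rose were *Cxcr5* (2.30), *Pou2f2* (2.02), *Dapp1* (0.82), *Pou2af1* (0.67) and *Tnfrsf13b* (0.47), of which *Cxcr5*, the follicle-homing chemokine receptor, is also a gene of follicular helper T cells. Of the 19 that fell, 6 act in signalling: the phospholipase *Plcg2* (-1.15), the kinases *Syk* (-0.96) and *Lyn* (-0.77), the adaptors *Blnk* (-0.76) and *Pik3ap1* (-0.70), and *Ralgps2* (-0.61). Another 5 were surface receptors, *Cd180* (-1.35), *Siglecg* (-1.20), the inhibitory Fc receptor *Fcgr2b* (-1.14), *Cd40* (-1.10) and *Fcrla* (-0.99). The transcription factors *Bcl11a* (-1.39), *Mef2c* (-1.098), *Tcf4* (-1.08), *Spib* (-1.005) and *Bach2* (-0.84) fell, as did the lambda light chains *Iglc1* (-0.81), *Iglc3* (-0.73) and *Iglc2* (-0.69). In CPM all 6 antigen receptor chains and all 15 surface receptors were higher in set 2 in both groups. Only 7 of the 9 signalling genes and 5 of the 9 transcription factors were. Among those lower in set 2 in both groups were *Bach2* (153, 249, 54.6 and 107 CPM, libraries ordered as before), *Pou2f2* (239, 54.6, 77.5 and 20.9) and *Ralgps2* (48.4, 66.9, 36.4 and 61.6).

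Between the sets 16 of the 39 rose and 1 fell, with a median log2 fold change of 1.69, beside 16.3% and 18.8% of all genes and a median of -0.02. These shares were not matched for transcript length. All 6 antigen receptor chains rose, with *Ighm* at 1.28, *Ighd* at 2.61, *Iglc3* at 3.66, *Igkc* at 3.88, *Iglc2* at 3.89 and *Iglc1* at 4.14. The surface receptors that rose included *Fcrla* (3.90), *Fcmr* (3.48), *Cd24a* (3.34), the BAFF receptor gene *Tnfrsf13c* (2.996) and *Fcrl5* (2.78), and the signalling genes *Blnk* (2.63), *Bank1* (2.51) and *Lyn* (1.79) and the transcription factor *Spib* (2.63) rose as well. *Ighm* was already abundant in set 1, with 1220 and 735 TPM in CD4+Lrig1+ and CD4+Lrig1- T cells, and had 1331 and 1431 TPM in set 2, while the kappa light chain *Igkc* had 189 and 171 TPM in set 1 and 1087 and 1959 TPM in set 2. The heavy chain thus stood far above the light chain in set 1 and below it in the CD4+Lrig1- library of set 2. *Cd37*, a tetraspanin that T cells express too, had 466, 456, 329 and 306 TPM, and *Ikzf3* (Aiolos), the 1 gene that fell (-1.48), is also expressed by T cells.

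By likeness of their level over the 4 libraries, the 9 genes had *Bank1*, a scaffold protein of B cell receptor signalling, as the nearest of 8823 genes with a mean of at least 10 CPM. Its log2 CPM lay 0.0892 (root mean square) from the mean centred profile of the 9, and it had 5.36, 5.26, 20.9 and 39.8 CPM. The next were *Cd8a* (0.121), *Tnfrsf13c* (0.184), *Igha* (0.201), *Ighd* (0.218), *Scd1* (0.219), *Gm11878* (0.230), *S100a9* (0.248), *Rpl17-ps10* (0.290) and *Spib* (0.293). The list thus holds genes of other cells beside B lineage genes. Of the 9 themselves *Blk* (0.113) and *Fcer2a* (0.115) lay nearest to their common profile and *Cd22* (0.883) and *Ms4a1* (0.739) farthest. These distances are a description over 4 libraries.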

How the data were processed

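The authors sequenced paired-end libraries, made with a stranded mRNA kit, of CD4+ T cells isolated from spleen by their Lrig1 surface protein. The submitters' processing notes name Trimmomatic 0.38, HISAT2 2.1.0, Bowtie2 2.3.4.1 and StringTie 2.1.3b, and the builds GRCm38 and mm10. For each RefSeq transcript the authors deposited estimated counts, all whole numbers and not normalized. The FPKM and TPM values were made by the authors for each transcript and library, as deposited, and were summed per gene. The FPKM sum over all genes was 385076 and 374165 in set 1 and 591966 and 598247 in set 2, so FPKM levels set across the sets also carry that scale.

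The labels list 6 samples, 3 in each group. The design was written for every library whose column name gives its group, and 4 did. Another 6 columns, of 2 libraries in a separate table, were left out since their names leave the Lrig1 group open. No column name gives a replicate number.

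Counts were summed per gene symbol. In R 4.3.3, low counts were removed with filterByExpr of edgeR 4.0.16, which left 16123 genes and all 9 members. Libraries were scaled by TMM, and tests were by quasi-likelihood, with Benjamini-Hochberg adjustment over all genes tested and a threshold of 0.05. Log2 ratios between 2 libraries used a prior count of 2. Folds, their intervals, the ratios from 1 start site and the points in the figures of ratios were taken from the counts without it. Alternatives were the table block, DESeq2 1.42.0 for its size factors or its Wald test, removal of 182 immunoglobulin genes, other filters on low counts, limma 3.58.1 on FPKM (log2, pseudocount 1 or 0.1), a prior count of 0.5, library totals, and leaving out each library in turn. Added after seeing the data were limma on log2(TPM + 1), DESeq2 with the table block or the group as a second term, and counts from 1 start site. The procedure was tested on simulated data with known changes between the groups or the sets. The runs on the groups held no difference between the sets. They therefore do not show how the group test without the table block performs under the set difference seen here. Other tools were Python 3.11.15, scipy 1.17.1 and matplotlib 3.10.9.

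The 9 members, the marker lists and the tests were chosen with earlier results of these data known, so no list here is independent evidence. The genes to name were set as the members, their transcripts with at least 5% of the counts in any library, the 3 genes with the highest mean FPKM in each list, any listed gene that passed a test, *Lrig1* and *Foxp3*, and the 10 genes nearest in profile with a mean of at least 10 CPM. This was not kept in full. Most transcripts are given only through their start sites, and the 3 highest genes are named only for the 4 lists of the same pathway. Of the listed genes, those of the B lineage that passed a test are named except for 1 not reported here, and those of other cells are mostly given as counts. *Cd3e*, *Ppbp*, *Gp9* and the start site of *Cd22* with the motif were named beside these. Lists not described in the report (B cell precursor, plasma cell, germinal centre and marginal zone B cell, and plasmacytoid dendritic cell) summed in set 1 and set 2, CD4+Lrig1+ before CD4+Lrig1-, to 4.02, 12.1, 7.47 and 26.6 CPM, 172, 77.3, 269 and 235 CPM, 25.5, 13.7, 32.0 and 17.2 CPM, 554, 605, 486 and 509 CPM, and 52.9, 78.9, 113 and 206 CPM.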

Additional observations from a re-analysis of the deposited data

Results flagged for a closer look

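*Cd79b* and *Cd22* stood out because their ratio between the groups ran in opposite directions in the sets. Taking CD4+Lrig1+ T cells relative to CD4+Lrig1- T cells, it was 0.98 (log2) in set 1 and -0.64 in set 2 for *Cd79b*, and 1.02 and -0.55 for *Cd22*. Each set holds 1 library of each group, so this difference was not tested. The shares of *Cd22* and *Cd79b* in the summed TPM of the 9 genes were, in each set, larger in the CD4+Lrig1+ library.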

How the results depend on the processing

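No paired analysis was possible by replicate number, because the columns carry none, so the groups were paired by table instead. With this table block 2 of the 9 genes and 24 of the 39 other B lineage genes passed between the groups, against 0 and 0 without it. With that block the Wald test of DESeq2 called 3 and 23, and DESeq2's size factors 1 and 21. All genes called numbered 0 higher and 0 lower without the block, 2358 and 2056 with it, and 263 and 50 by the Wald test alone. Without the block, the 9 genes had 0 calls under every filter and scaling run.

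*Cd79b* and *Cd22* changed sign in the comparison of the groups: to 0.029 and 0.21 with the table block, 0.15 and 0.22 with that block in DESeq2, 0.17 and 0.22 on log2(FPKM + 1), 0.21 and 0.27 on log2(FPKM + 0.1), 0.19 and 0.24 on log2(TPM + 1), and *Cd22* alone to 0.030 with at least 10 counts in every library and 0.18 with size factors and the block. The cause was not tested. When each library was left out in turn, the calls numbered 0 to 0 of the 9 genes between the groups, 0 to 0 of the 39, and 0 to 0 of the 9 between the sets. In those fits the lone library of a group or set is assumed to vary like the others. The log2 fold change between the groups then ran from -3.14 to 2.15 (*Cd79a*), -2.51 to 2.97 (*Cd79b*), -3.78 to 2.47 (*Ms4a1*), -0.58 to 1.11 (*Cd22*), -1.73 to 0.56 (*Pax5*), -2.20 to 1.18 (*Blk*), -2.02 to 0.68 (*Ebf1*), -2.40 to 1.59 (*Fcer2a*) and -2.16 to 0.75 (*Cr2*), the highest of each without the CD4+Lrig1- library of set 2.

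Between the sets the calls among the 9 genes numbered from 5 to 9 over the other alternatives. On log2(TPM + 1) 865 genes were higher and 6516 lower in set 2, against 2622 and 3038 on counts, with 5 of the 9 higher. The median ratio in set 2 was -1.01 with library totals in place of -1.12. Levels of 81 to 577 counts limit *Ebf1* most, and 2 libraries a group limit every test.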
